A study of Mus musculus with 6 samples.

Results

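Selenoprotein genes and the genes that handle selenium were followed in the kidneys of mice that lack Selenbp1, the selenium-binding protein 1. The set holds 10 genes, which were chosen by name: the glutathione peroxidases Gpx1, Gpx3, and Gpx4, the thioredoxin reductases Txnrd1 and Txnrd2, the deiodinase Dio1, the methionine sulfoxide reductase Msrb1, the selenium enzymes Sephs2 and Scly, and the plasma selenium carrier Selenop, which the files call Sepp1. They are 10 of the 37322 genes that the arrays name, and were read by 19 of the 56605 probes. Kidney RNA of 3 WT and 3 Selenbp1-KO mice was hybridized to 6 one-color arrays, 1 per sample. All mice of both genotypes were males, 8 weeks old, fasted for 20 h, and the left kidney was taken. The study's methods name C57BL/6J as the strain of the WT mice and give no strain for the Selenbp1-KO mice. The WT mice were bought from a supplier, and how the Selenbp1 allele was made or whether the Selenbp1-KO mice were littermates of the WT mice is not given in the sources used here. The labels do not say that samples of 1 genotype came from separate litters or cages, so the p-values below measure only the spread between these arrays.

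Selenium works in mammals mainly as selenocysteine, an amino acid that is built on its own transfer RNA and inserted where a UGA codon would otherwise end the protein. Insertion needs a hairpin in the untranslated end of the messenger RNA and proteins that bind it. Selenoprotein messenger RNAs differ in how well they persist when selenium is scarce, and Gpx1 is known as one of the most sensitive, while Gpx4 is known as well protected. For these genotypes the paper measured selenium in kidney and serum and reports no significant difference. The kidney takes up selenoprotein P from plasma through the receptor megalin, and its proximal tubule is the main source of the glutathione peroxidase of plasma, Gpx3. Selenbp1 itself carries no selenocysteine. It binds selenium and oxidizes methanethiol, and how its loss bears on the genes of selenoproteins is the question that this comparison addresses.

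The probes themselves show what was measured. Each is a 60-base sequence on the sense strand of its transcript, taken from the deposited scanner files, with coordinates on mm9 as the files give them. The coding probes of Gpx4, Gpx1, and Dio1 are shown because the results below turn on them: Gpx4 is the gene that differed, Gpx1 the gene whose genotypes separated with a small difference, and Dio1 the gene that was read by 3 probes with like profiles. The Gpx4 probe (NM_001037741, position 697, chr10:79518691-79518842, plus strand) covers 152 bases of genome, 92 more than its own length, so it crosses an exon junction and reads spliced RNA. The Gpx1 probe (NM_008160, position 647, chr9:108242276-108242335, plus strand) and the Dio1 probes at position 301 (NM_007860, chr4:106979388-106979447, minus strand) and at position 739 (chr4:106964935-106964994, minus strand) each lie in 1 unbroken stretch. All 4 have at least 1 reading frame with no stop codon before the last codon, and the capitals mark a stop codon at the very end of the Dio1 probe at position 739.
Gpx4, position 697: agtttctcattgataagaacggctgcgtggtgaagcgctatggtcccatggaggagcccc
Gpx1, position 647: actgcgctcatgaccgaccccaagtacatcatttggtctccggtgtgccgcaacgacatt
Dio1, position 301: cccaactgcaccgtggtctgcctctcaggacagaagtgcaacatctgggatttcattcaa
Dio1, position 739: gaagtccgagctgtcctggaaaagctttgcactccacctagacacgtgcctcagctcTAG

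Values below are log2 signals of a probe relative to the 75th percentile of its array, so that 0 is the level of that percentile, and are listed in the order WT replicates 2, 3, 4 and Selenbp1-KO replicates 1, 2, 3. Probes differ in how well they bind, so signal levels of different probes are not read as transcript levels: brightness serves only to choose probes and genes to name, and signals summed over a list are compared only between arrays. A gene is given by its brightest probe over the 6 arrays, and for the 10 selenium genes the other probes are given beside it. The threshold was an unadjusted p under 0.05 from limma, the threshold of the study's methods, and adjusted values are Benjamini-Hochberg values over all 56097 probes tested. The number of arrays limits the precision, since 3 arrays against 3 allow no exact permutation p under 0.10. The targeted gene was checked first. Selenbp1 read 7.07, 7.02, and 7.02 on the WT arrays against 4.13, 3.98, and 4.10 on the Selenbp1-KO arrays, a difference of -2.96 (SE 0.098, adjusted p = 0.0021 from limma), so each array has the genotype of its label. By the numbering of the scans, all arrays were on 1 slide. WT replicates 2 and 3 share one position number and the other 4 arrays another. That number is read here as the side of the slide, which the labels do not name. The 75th percentile ranged from 519 to 751 in WT and from 477 to 584 in Selenbp1-KO arrays. With this scaling the median difference of all genes, Selenbp1-KO minus WT, was 0.13, and it was 0.016 over the 19270 genes whose probe was well above background on all arrays of WT, of Selenbp1-KO, or of both. It was 0.0049 over all genes after quantile normalization. Of 37025 genes tested, 2963 differed at the threshold, which is 8%, of which 2543 rose (6.87%) and 420 fell (1.13%) with the knockout. After quantile normalization 3358 genes passed, 1976 of them higher, and on the first scale leaving out WT replicate 4 gave 11811 genes and leaving out WT replicate 2 gave 1294, so the background itself leans on single arrays. Blocking the slide side leaves WT replicate 4 as the only WT array on the side of the Selenbp1-KO arrays. Differences under that block therefore compare the Selenbp1-KO arrays with this 1 WT array alone. A block on the replicate number rests on numbers 2 and 3 alone, the only ones found in both genotypes. Few arrays are left under either block, so a call lost there does not decide whether a difference depends on the block. Among the 19270 genes well above background, 2000 passed (10.4%), 1445 of them higher. The 2 genotypes did not overlap for 5208 genes (14.1%), of which 3774 were higher (10.2%). After adjustment, the 2 genes left (0.0054%) were Selenbp1 and its paralog Selenbp2, whose probe differed by -3.22. The paper describes the paralogs as highly homologous and the kidney level of Selenbp2 as low. Whether the Selenbp2 probe also reads Selenbp1 RNA was not tested.

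Of the 10 selenium genes, 1 differed between the genotypes, the phospholipid hydroperoxide peroxidase Gpx4, which was higher in Selenbp1-KO kidneys by 0.38 on the log2 scale. This is 1 of 10 against 8% of all genes, or 6.87% for higher genes, so the share is near the background. The genotypes did not overlap for 2 of the 10, Gpx1 and Gpx4, both higher, against 14.1% of all genes and 10.2% for higher genes. The mean was higher in Selenbp1-KO kidneys for 7 and lower for 3, and the differences ran from -0.19 for Txnrd1 to 0.38 for Gpx4 with a median of 0.08. That median lies below the 0.13 of all genes and above the 0.016 of genes well above background. With quantile normalization and with the authors' values, 3 means were higher and 7 lower, and on unscaled signals Gpx4 alone was higher. The median difference of all genes on unscaled signals was itself below 0, at -0.15. The lowest adjusted p was 0.279. All 10 brightest probes were well above background on all 6 arrays. As bulk tissue was measured, fewer cells of a type and less RNA per cell cannot be told apart.

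**Figure D1:**
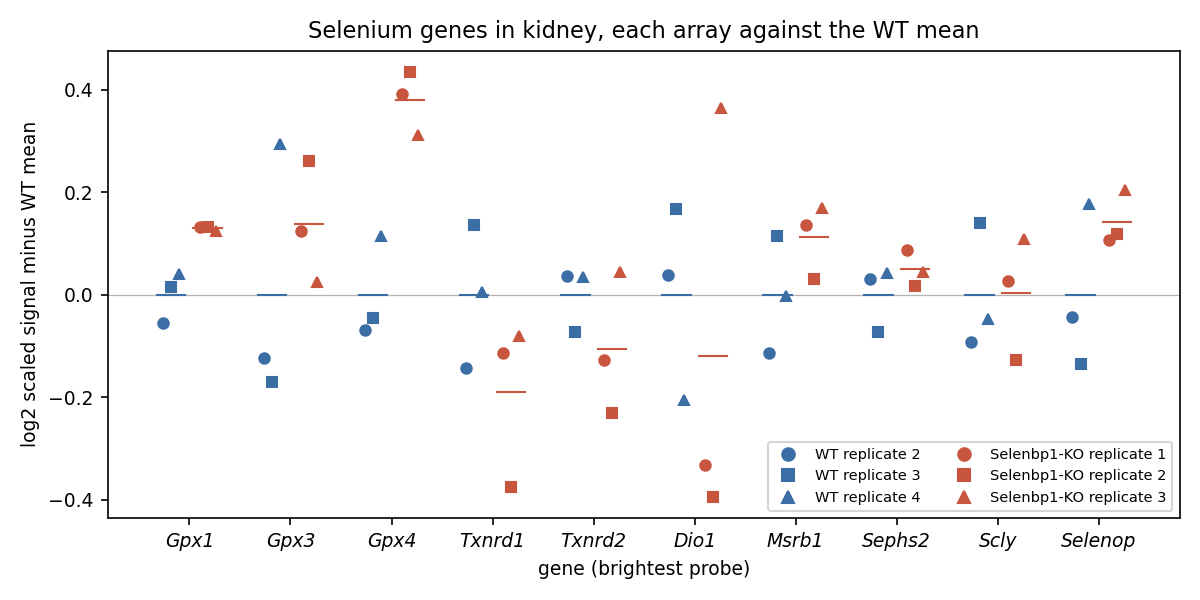
Log2 scaled signal of the brightest probe of each of the 10 genes on each array, minus the WT mean of that gene (y axis), with blue points for WT and red points for Selenbp1-KO arrays and a line at each mean. The Selenbp1-KO points of Gpx4 lie above all WT points with a mean difference of 0.38, those of Gpx1 lie close together above WT, and the points of Dio1 have the widest Selenbp1-KO spread.

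Among the glutathione peroxidases, which use glutathione to reduce peroxides, Gpx4 acts on lipid peroxides in membranes and holds off ferroptosis. Its probe had log2 signals of 7.13, 7.16, and 7.32 on the WT arrays. On the Selenbp1-KO arrays its log2 signals were 7.59, 7.64, and 7.51. The lowest Selenbp1-KO array was above the highest WT array. The WT mean was 7.20 ± 0.10 (SD, n = 3), and that of the Selenbp1-KO kidneys was 7.58 ± 0.063 (SD, n = 3). That is a ratio of 1.30 with a 95% interval of 1.09 to 1.55 (log2 difference 0.38, SE 0.11, adjusted p = 0.28 from limma), under the unadjusted threshold. The difference was 0.26 to 0.44 in the 18 alternatives, and it passed the unadjusted threshold in 16 of them, with adjusted values from 0.000962 to 0.84. It was not called with the slide side (0.26) or the replicate number (0.43, SE 0.16) as a block. The first of these fits rests on WT replicate 4 as its only WT array, and the second on replicates 2 and 3 of each genotype. With so few arrays, these fits do not decide whether the Gpx4 difference depends on the slide side or the replicate number. Leaving out any 1 array gave 0.34 to 0.44, each past the threshold. Before any scaling between arrays, the genotypes overlapped and the log2 difference was 0.11 (SE 0.12), a setting added after the data were seen. Gpx4 has 1 probe here, so the difference has no second probe to set beside it.

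Gpx1, the cytosolic glutathione peroxidase that reduces hydrogen peroxide, had log2 signals of 8.41, 8.48, and 8.50 in WT arrays and of 8.59, 8.59, and 8.59 in Selenbp1-KO arrays. The genotypes did not overlap, and the SD of the Selenbp1-KO arrays was 0.0041 (n = 3). The difference of 0.13 (SE 0.092, 95% interval -0.10 to 0.36, adjusted p = 0.49 from limma) did not pass the threshold. It was -0.077 after quantile normalization and -0.078 in the authors' normalized values, so its direction depends on the scaling. With the methods' t-test and with limma's trend and robust options, Gpx1 passed the unadjusted threshold.

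Gpx3, the secreted peroxidase that the proximal tubule supplies to plasma, had log2 signals of 8.26, 8.22, and 8.68 in WT arrays and of 8.51, 8.65, and 8.41 in Selenbp1-KO arrays (NM_008161, chr11:54723436-54723495). The highest and both lowest values were WT arrays. The difference of 0.14 (SE 0.16, 95% interval -0.25 to 0.53, adjusted p = 0.70 from limma) did not pass the threshold. Its sign turned to -0.031 with quantile normalization and to -0.16 when the slide side was blocked. Before scaling, the log2 signals were 17.74, 17.77, and 17.70 in WT and 17.66, 17.55, and 17.60 in Selenbp1-KO arrays. There the lowest WT signal exceeded the highest Selenbp1-KO signal, with a difference of -0.13 (SE 0.064). The median difference of all genes on that unscaled signal was -0.15, so the Gpx3 value lies near it. The scaled profile of Gpx3 followed the array: its Pearson r with the log2 75th percentile over the 6 arrays was -0.97, which is partly built in, since that percentile is subtracted. This r was -0.81 for Gpx4, and among the 10 genes it reached 0.64 for Dio1. For Selenom and Selenow, selenoprotein genes taken up below, it was -0.57 and -0.62. Among 18360 genes well above background on all 6 arrays, those with a profile very like that of Gpx3 included the ferritin chains Fth1 (r = 0.998) and Ftl1 (r = 0.996). Both share these arrays and their scaling, and their own differences were 0.16 and 0.14.

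**Figure D2:**
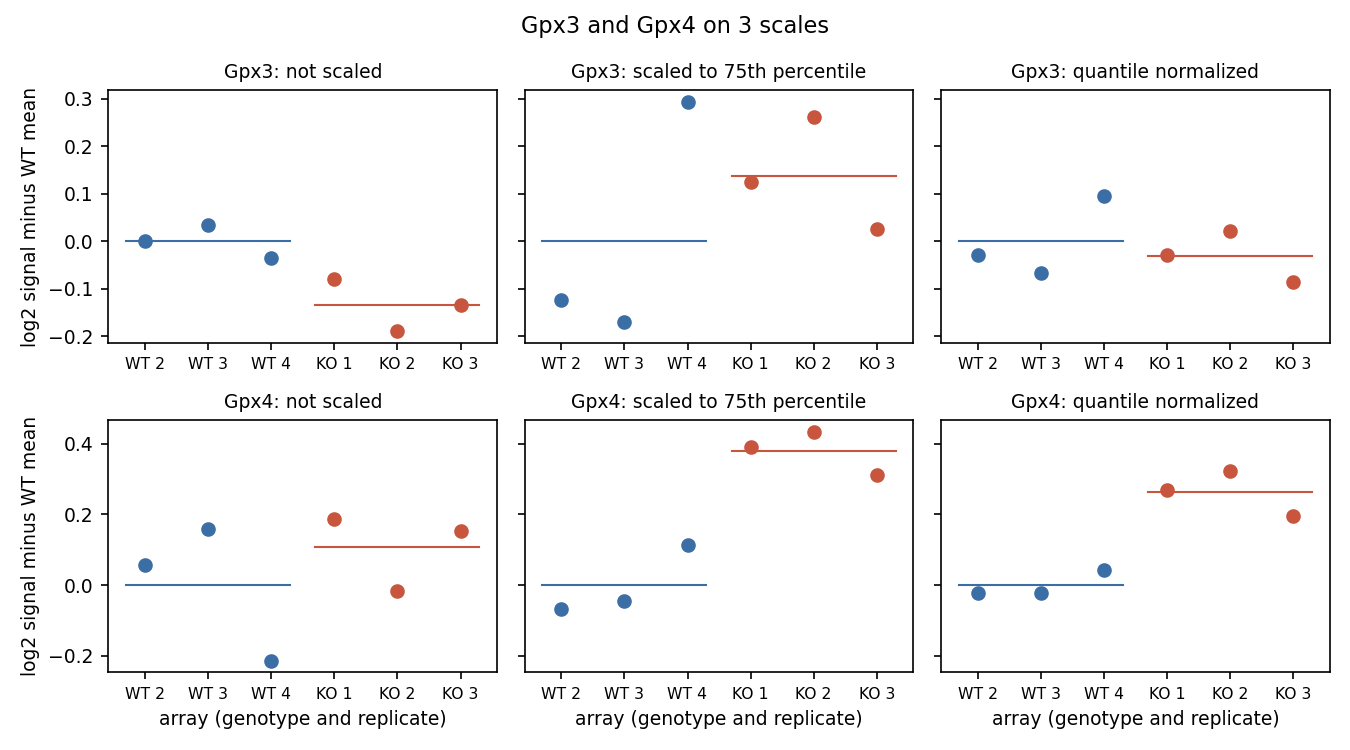
Log2 signal minus the WT mean (y axis) on each of the 6 arrays for Gpx3 (top) and Gpx4 (bottom), before scaling, scaled to the 75th percentile, and after quantile normalization, with blue points for WT, red for Selenbp1-KO, and lines at the means. The Gpx4 difference was 0.11, 0.38, and 0.26 on the 3 scales and the genotypes were apart on the last 2, whereas the Gpx3 difference was -0.13, 0.14, and -0.031.

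The thioredoxin reductases, which use NADPH to keep thioredoxin reduced, had means that were lower in Selenbp1-KO kidneys without passing the threshold. Txnrd1, the cytosolic enzyme, had log2 signals of 4.23, 4.50, and 4.37 in WT and of 4.25, 3.99, and 4.29 in Selenbp1-KO arrays at its brightest probe (position 3394). The lowest value was Selenbp1-KO replicate 2, and the genotypes overlapped (difference -0.19, SE 0.13, adjusted p = 0.49 from limma). The difference was below 0 in all 18 alternatives, from -0.28 to -0.10, and had a p under 0.05 in 1 of them, limma with trend and robust options. Its second probe (position 552) gave 2.92, 2.90, and 2.53 in WT and 2.75, 1.99, and 2.52 in Selenbp1-KO arrays, again lowest in Selenbp1-KO replicate 2 (difference -0.36, SE 0.23). Txnrd2, the mitochondrial enzyme, has 4 probes, which did not move together. The brightest (position 1844) had log2 signals of 3.05, 2.94, and 3.05 in WT and of 2.88, 2.78, and 3.06 in Selenbp1-KO arrays, and differed by -0.10 (SE 0.11). The probe at position 404, which matches another transcript (ENSMUST00000126778), was 1.43, 1.40, and 1.39 in WT and 1.48, 1.53, and 1.56 in Selenbp1-KO arrays, apart by genotype with a difference of 0.12 (SE 0.092). The probe at position 815 differed by -0.10, and the probe at position 1180 was not well above background on any array.

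Dio1, the deiodinase that activates thyroid hormone in kidney and liver, varied more within Selenbp1-KO arrays than between the genotypes. At the brightest probe (position 842) its log2 signals were 0.48, 0.61, and 0.24 in WT and 0.11, 0.05, and 0.81 in Selenbp1-KO arrays. Selenbp1-KO replicate 3 was the highest and replicate 2 the lowest of the 6, and the difference of the means was -0.12 (SE 0.23, 95% interval -0.69 to 0.45). Both coding probes shown above had the same profile. At position 739 the values were -0.13, 0.09, and -0.20 in WT and -0.14, -0.52, and 0.35 in Selenbp1-KO arrays, and at position 301 they were -1.87, -1.81, and -2.11 in WT and -2.02, -2.16, and -1.49 in Selenbp1-KO arrays. The order of the Selenbp1-KO arrays was thus the same at all 3 probes, and Pearson's r between pairs of probes was 0.91, 0.95, and 0.94 over 6 arrays that the probes share. The differences at these 2 probes were -0.02 and 0.04, and the sign at the brightest probe turned to 0.086 when the slide side was blocked and to 0.016 without Selenbp1-KO replicate 2.

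Msrb1, which reduces oxidized methionine in proteins, had log2 signals of 6.51, 6.73, and 6.62 in WT and of 6.76, 6.65, and 6.79 in Selenbp1-KO arrays. The genotypes overlapped (difference 0.11, SE 0.11, adjusted p = 0.64 from limma). Its dimmer probe (position 711) followed the brighter one over the 6 arrays (r = 0.96) and differed by 0.17. Sephs2 makes selenophosphate, the selenium donor for selenocysteine, and is itself a selenoprotein. It had 6.16, 6.06, and 6.18 in WT and 6.22, 6.15, and 6.18 in Selenbp1-KO arrays, with overlapping genotypes and a difference of 0.05 (95% interval -0.18 to 0.28). The sign turned to -0.025 after quantile normalization, and the second probe (position 1163) differed by -0.0048. Scly, the lyase that frees selenium from selenocysteine and the only 1 of the 10 that is no selenoprotein, had 3.60, 3.84, and 3.65 in WT and 3.72, 3.57, and 3.80 in Selenbp1-KO arrays. Its means were level (difference 0.0028, 95% interval -0.29 to 0.30, and -0.042 after quantile normalization), and its second probe (position 331) differed by -0.13. Selenop, the carrier that brings selenium to the kidney, had 6.95, 6.85, and 7.17 in WT and 7.09, 7.11, and 7.19 in Selenbp1-KO arrays. WT replicate 4 lay among the Selenbp1-KO arrays, and the difference of 0.14 (SE 0.12, adjusted p = 0.57 from limma) turned to -0.035 when the slide side was blocked.

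**Figure D3:**
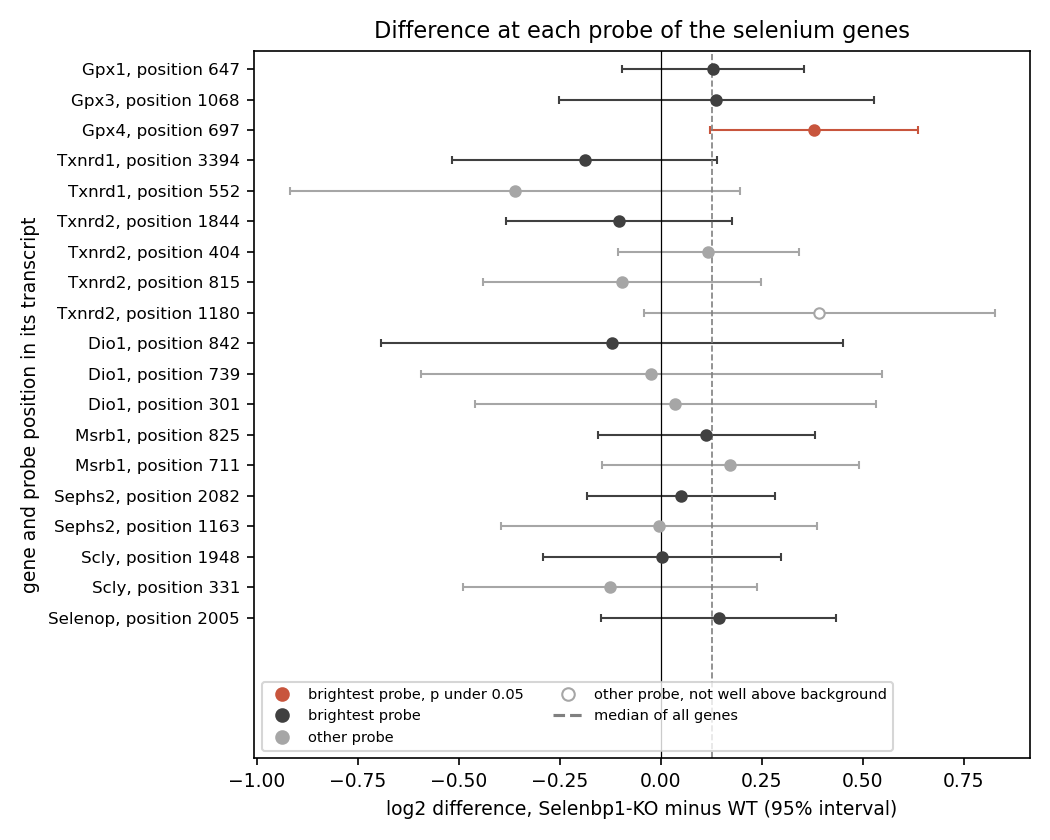
Difference of the log2 signal, Selenbp1-KO minus WT, with its 95% interval (x axis) for each of the 19 probes of the 10 genes (y axis, with the position of the probe in its transcript), with the brightest probe of a gene in dark and other probes in light gray. Gpx4, in red, is the one interval above 0 among them, at 0.12 to 0.64, and the dashed line marks the median of all genes at 0.13.

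The other 15 selenoprotein genes of the mouse were counted in the same fit. Among them, 2 rose with the knockout and none fell, against 6.87% and 1.13% of all genes, and their median difference was 0.05. Selenom, a thioredoxin-like protein of the endoplasmic reticulum, had log2 signals of 2.76, 2.86, and 2.83 in WT and of 3.28, 3.23, and 3.25 in Selenbp1-KO arrays. All 3 Selenbp1-KO arrays were above all WT arrays by more than the spread within either genotype (difference 0.44, SE 0.093, adjusted p = 0.28 from limma). The difference was 0.38 to 0.46 in the 18 alternatives and passed the unadjusted threshold in 17 of them, the exception being the replicate block (0.43, SE 0.16). Selenow, a small selenoprotein of the cytosol, had 3.52, 3.73, and 3.68 in WT and 3.99, 3.98, and 3.85 in Selenbp1-KO arrays. It was apart by genotype too, with a difference of 0.29 (SE 0.11, adjusted p = 0.28 from limma). It passed the unadjusted threshold in 12 of 18 alternatives. It did not with median scaling (0.27), with either block (0.26 for the slide side and 0.29 for the replicate number), or when WT replicate 2 (0.23), Selenbp1-KO replicate 1 (0.27), or Selenbp1-KO replicate 2 (0.27) was left out. On unscaled signals the genotypes overlapped for both genes, with differences of 0.17 for Selenom and 0.02 for Selenow. Genotypes did not overlap for 4 of the 15, these 2 with Selenoh (0.15) and Selenoi (-0.25, the other direction), against 14.1% of all genes. Selenoi was called lower in 5 alternatives: quantile normalization, the authors' values, the filter on dim probes, the methods' t-test, and the slide side block. Its other probes differed by -0.31 and 0.62, and the one at 0.62 was not well above background on any array. Where all probes of a gene were averaged, Selenoi was counted as called higher. That count rests on the probe at 0.62 alone, which carries an older gene name and was not averaged with the others. The brightest of the rest were Selenok, Selenof, and Selenot, with differences of 0.07, 0.15, and -0.03. The deiodinases Dio2 and Dio3 were not well above background on any array, and the intestinal peroxidase Gpx2 was so on 3 WT arrays and 1 Selenbp1-KO array. Over all 24 selenoprotein genes, 3 were called, all higher, against 8% of all genes called and 6.87% called higher. Their median difference was 0.06, against 0.13 for all genes and 0.016 for genes well above background.

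**Figure D4:**
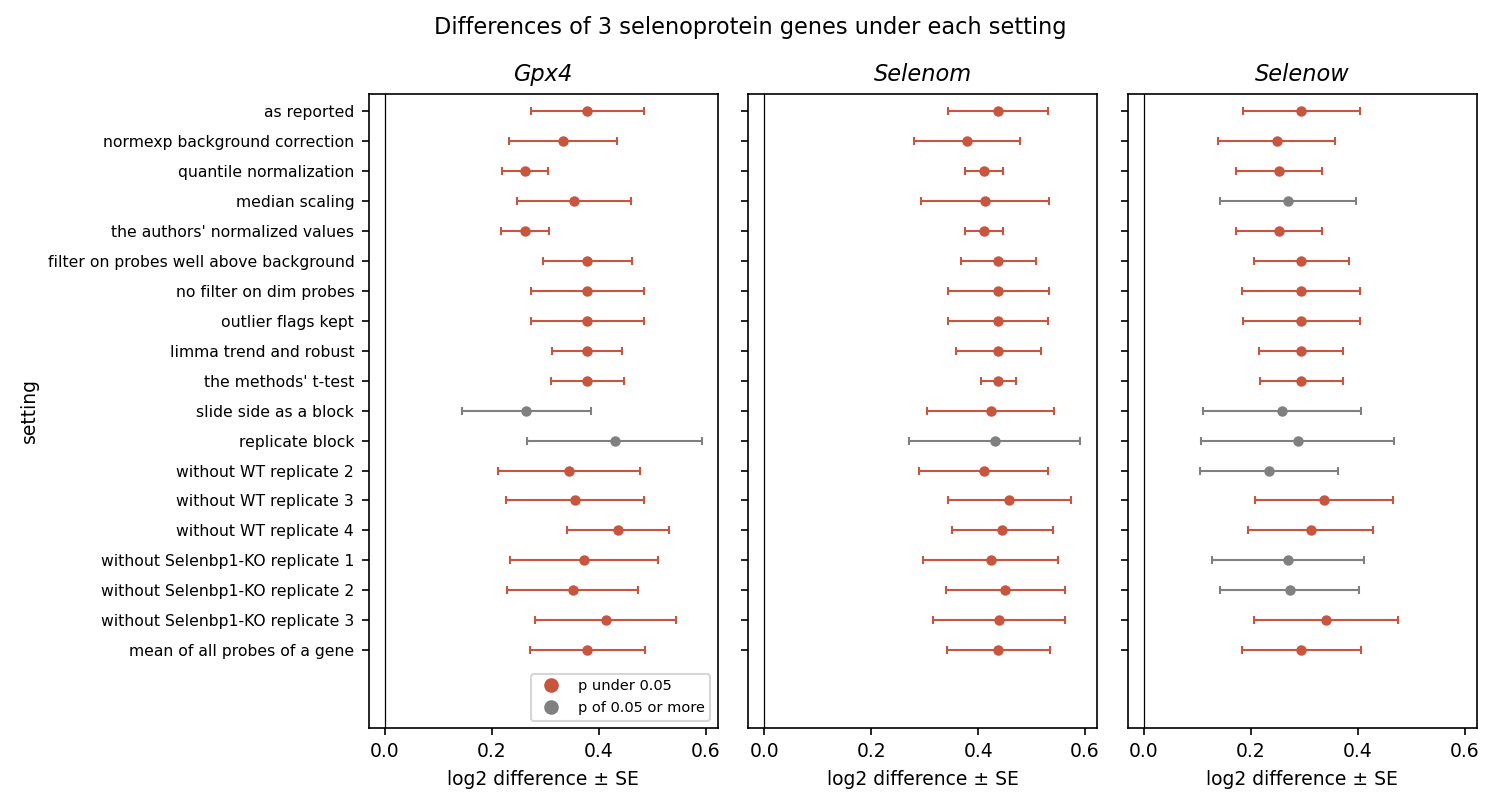
Log2 difference, Selenbp1-KO minus WT, ± SE (x axis) of Gpx4, Selenom, and Selenow as reported and under each of the 18 alternatives (y axis), in red where the unadjusted p was under 0.05 and in gray elsewhere. All values are above 0, and the p was under 0.05 in 16 alternatives for Gpx4, 17 for Selenom, and 12 for Selenow.

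The 300-base windows around the transcription starts of Gpx4, Selenom, and Selenow are available from RefSeq (GRCm38.p6), and the 250 bases before the start are shown because these are the selenoprotein genes that were called. RefSeq lists 4 starts for Gpx4, of which the second from upstream is shown. Capitals mark matches on either strand to GGGCGG (a GC box), CCAAT, or TATAAA. The Gpx4 stretch (chr10:80053315-80053564, plus strand) holds 2 matches to GGGCGG and 2 to CCAAT. The Selenom stretch (chr11:3514434-3514683, plus strand) holds 1 match to TATAAA, and the Selenow stretch (chr7:15922372-15922621, minus strand) holds none of the 3. Over all 32851 promoter windows of 300 bases, 35.7% hold GGGCGG, 37.4% CCAAT, and 13.6% TATAAA. The core of the antioxidant response element, TGACNNNGC, is in 12.4% of all windows and in 1 of the 17 windows of the 10 genes, that of Txnrd1. These are letter matches and not measured sites.
Gpx4, 250 bases before the start: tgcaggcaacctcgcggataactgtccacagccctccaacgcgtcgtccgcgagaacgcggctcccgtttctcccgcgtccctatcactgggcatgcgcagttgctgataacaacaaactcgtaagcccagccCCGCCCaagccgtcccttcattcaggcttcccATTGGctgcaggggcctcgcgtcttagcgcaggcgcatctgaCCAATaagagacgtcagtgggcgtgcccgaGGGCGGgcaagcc
Selenom, 250 bases before the start: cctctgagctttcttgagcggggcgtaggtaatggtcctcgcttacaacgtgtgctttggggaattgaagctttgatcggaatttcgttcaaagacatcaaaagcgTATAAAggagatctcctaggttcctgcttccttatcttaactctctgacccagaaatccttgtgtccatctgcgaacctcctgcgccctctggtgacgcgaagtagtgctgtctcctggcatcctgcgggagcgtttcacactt
Selenow, 250 bases before the start: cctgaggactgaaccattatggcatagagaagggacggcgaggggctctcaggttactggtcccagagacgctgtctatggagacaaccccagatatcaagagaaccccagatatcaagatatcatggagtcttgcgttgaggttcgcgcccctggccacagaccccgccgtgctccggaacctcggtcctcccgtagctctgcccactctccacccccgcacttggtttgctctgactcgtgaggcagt

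Genes of selenocysteine synthesis and insertion showed no call. None of 9 passed the threshold (limma, unadjusted p under 0.05), and their differences ran from -0.20 to 0.21 with a median of -0.03. The brightest were the seryl-tRNA synthetase Sars, which charges the transfer RNA for selenocysteine, with a difference of -0.03, and Trnau1ap, which binds that transfer RNA, with 0.19. Trnau1ap was 3.96, 4.04, and 4.05 in WT and 4.22, 4.16, and 4.25 in Selenbp1-KO arrays, apart by genotype, with an adjusted p of 0.30 from limma. Its other probes were apart by genotype too, with differences of 0.25 and 0.17. At its brightest probe it passed the unadjusted threshold in 5 of 18 alternatives. Of 6 genes of selenium uptake and small-molecule metabolism, none passed either, with a median of 0.0046. Here Lrp2, megalin, the receptor that takes up Selenop in the proximal tubule, differed by -0.01, and Inmt, a methyltransferase that can methylate selenium compounds, differed by 0.10. Of 20 thiol partners and selenium-free relatives, 1 passed, Gpx7, a peroxidase of the endoplasmic reticulum that has cysteine in place of selenocysteine. It had -2.80, -2.65, and -2.94 in WT and -2.42, -2.37, and -2.58 in Selenbp1-KO arrays (difference 0.35, SE 0.12, adjusted p = 0.28 from limma), and passed in 11 of 18 alternatives. It did not with median scaling (0.32), the trend and robust options (0.35), or the replicate block (0.26), nor when WT replicate 2, WT replicate 4, or Selenbp1-KO replicates 1 or 2 were left out (0.27 to 0.34). The brightest of that list, the glutaredoxin Glrx2 and the peroxiredoxin Prdx5, differed by 0.11 and 0.19. Over these 35 genes, 1 call stands against 8% of all genes.

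Most red blood cell, connective tissue fibroblast, and macrophage markers were higher in Selenbp1-KO kidneys, as were Gpx4, Selenom, Selenow, and Gpx7. The 8 proximal tubule markers showed no call (limma, unadjusted p under 0.05), and their summed linear signal, in units of the 75th percentile, was 839 to 1019 in WT and 917 to 940 in Selenbp1-KO arrays. Of 4 red blood cell markers, 3 were higher in Selenbp1-KO kidneys, with sums of 257 to 344 in WT and 363 to 538 in Selenbp1-KO arrays: Hbb-b1 by 1.26, Alas2 by 0.86, and Hba-a1 by 0.56. Of 5 connective tissue fibroblast markers, 4 were higher, with sums of 13.5 to 19.9 against 25.2 to 32.7: Dpt by 1.08, Lum by 0.85, Dcn by 0.83, and Col1a1 by 0.44. Of 5 macrophage markers, 3 were higher, with sums of 9.85 to 11.5 against 11.7 to 12.7: C1qa by 0.58, C1qb by 0.51, and Cd68 by 0.36. The 5 fat markers showed no call, with sums of 12.4 to 47.6 against 21.6 to 119, and the 5 endothelium and 5 collecting duct markers showed none. In the lists of 5 glomerulus and 5 distal tubule markers, Synpo (0.29) and Pvalb (0.32) passed, and the other 8 did not. Of these marker calls, Hbb-b1, Dcn, Lum, and Dpt held in all 18 alternatives, and C1qa, Alas2, C1qb, and Cd68 held in 16 or 17. Pvalb held in 14, Hba-a1 and Col1a1 in 11, and Synpo in 10. The adrenal cortex and medulla markers showed no call, and Cyp11a1, Cyp11b1, Dbh, and Pnmt were not well above background on any array. All defining markers of the red blood cell, fibroblast, and macrophage lists were well above background on all 6 arrays. The part of these cells in the differences of Gpx4, Selenom, Selenow, and Gpx7 was not tested.

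**Figure D5:**
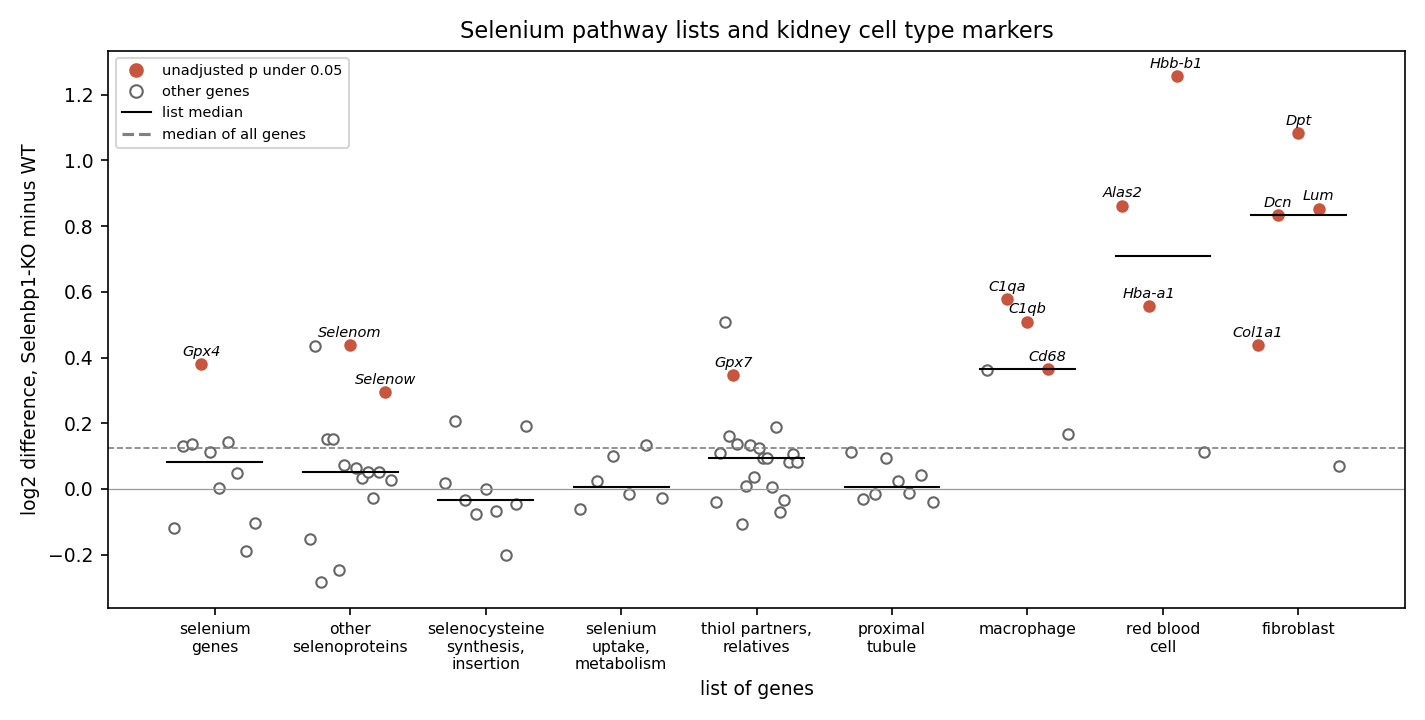
Log2 difference, Selenbp1-KO minus WT (y axis), of each gene in the selenium lists and in 4 cell type marker lists (x axis), in red with its name where the unadjusted p was under 0.05, with a line at each list's median and a dashed line at the median of all genes. The selenium lists have medians from -0.03 to 0.09, and the fibroblast and red blood cell markers have medians of 0.83 and 0.71. The 2 open points above 0.4 among the selenium lists, Dio3 and Gpx5, were not well above background on any array.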

How the data were processed

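Kidney RNA of 3 WT and 3 Selenbp1-KO mice was hybridized to one-color Agilent arrays. For each array the authors deposited the Feature Extraction output (version 10.7.1.1 in the file headers, 9.5.1.1 in the submitters' processing notes): a linear intensity, background-subtracted within the array, and a p-value of each spot against background. The log2 intensities in the authors' second table, deposited as 1 normalized intensity per probe, rank as the scanner values do and have 1 median on all arrays. The log2 processed signal was taken minus that of the array's 75th percentile over 59305 non-control spots. Spots with outlier flags were left out, spots of a probe were averaged, and 56097 probes detected (p under 0.05) on 1 array or more entered a two-sided comparison by lmFit and eBayes of limma 3.58.1 under R 4.3.3. A RefSeq table of GRCm38.p6 named 32994 probes. Coordinates are mm9. The array design in the file headers differs from the one in the labels.

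The 10 genes and all lists were chosen with earlier results of these data known. Named were all probes of the 10 genes, Selenbp1 and Selenbp2, all called genes of the other lists, the brightest and most changed of the selenoproteins, the 2 brightest of each other pathway list, and the 3 genes most like Gpx3, of which 1 is not reported here. Genes named because the genotypes did not overlap or because a probe was dim were chosen after their values were seen. The 18 alternatives were normexp (offset 50), quantile normalization, median scaling, the authors' values, no filter, a filter that keeps probes well above background, flags kept, limma's trend and robust options, the methods' t-test with equal variances, slide side and replicate number as blocks, a gene's probes averaged, and leaving out each array. The fit was tested on simulated data with independent noise and with changes larger than those of the selenium genes. That test does not show how well differences as small as theirs are found. Control spots and the study's other assays were not analysed here.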

Additional observations from a re-analysis of the deposited data

How the results depend on the processing

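The signs of Gpx4, Txnrd1, Msrb1, Selenom, Selenow, and Gpx7 were the same in all 18 alternatives. The count of all genes called, 2963 as reported, was 9440 with median scaling, 5212 under trend and robust options, and 12284 with the replicate number as a block, and it was 1294 (without WT replicate 2) to 11811 (without WT replicate 4) when 1 array was left out, the others of note being 1689 (WT replicate 3 left out) and 1803 (Selenbp1-KO replicate 2 left out). With quantile normalization 3358 genes were called, 1976 of them higher. Of the 10 selenium genes, 1 was called as reported, 4 with the trend and robust options (Gpx1, Gpx4, Txnrd1, and Selenop), 2 with the methods' t-test (Gpx1 and Gpx4), and 0 with the slide side or the replicate number as a block, and leaving out 1 array gave 1 to 1. Of the other 15 selenoproteins, 2 were called as reported, 4 with quantile normalization, the authors' values, or the methods' t-test, 1 with median scaling, 0 with the replicate block, and 1 to 3 with 1 array left out. Of the 35 other pathway genes, 1 was called as reported, 4 with quantile normalization, 3 with the authors' values, the trend and robust options, or the t-test, 2 when dim probes were filtered or all probes of a gene averaged, 0 with median scaling or the replicate block, and 0 to 2 with 1 array left out. The shares of all genes called were 14.1% with trend and robust options, 7.72% with the t-test, and 6.09% with the slide side block. With the replicate block the share was 33.2%, with median scaling 25.5%, and with quantile normalization or the authors' values 9.07%. It was 10.4% when dim probes were filtered, 9% when probes were averaged, and 3.49% to 31.9% with 1 array left out. WT and Selenbp1-KO arrays share the replicate numbers 2 and 3, whose deviations from the genotype means correlated at 0.17 and 0.19. Pairs with unlike numbers ran from -0.33 to 0.19. The like-numbered pairs are too few, and not distinct enough, to show that the numbers pair the samples.

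Signs turned as follows, and the cause was not tested. With quantile normalization, these were Gpx1 (-0.077), Gpx3 (-0.031), Sephs2 (-0.025), Scly (-0.042), Glrx2 (-0.034), and Ftl1 (-0.037). With the authors' values, these were Gpx1 (-0.078), Gpx3 (-0.030), Sephs2 (-0.024), Scly (-0.042), Glrx2 (-0.034), and Ftl1 (-0.037). When the slide side was blocked, these were Gpx3 (-0.16), Dio1 (0.086), Selenop (-0.035), Selenof (-0.0091), Dio3 (-0.19), Glrx2 (-0.20), Prdx5 (-0.023), Fth1 (-0.14), Ftl1 (-0.14), Txnrd2 at position 815 (0.081), Dio1 at position 739 (0.094), and Sephs2 at position 1163 (0.24). When all probes of a gene were averaged, these were Txnrd2 (0.077), Scly (-0.062), Selenot (0.073), and Sars (0.012). Selenoi, lower as reported, was counted as called higher in that setting. There only its probe at 0.62 was read, which was not well above background and was not averaged with its other probes. With normexp, these were Scly (-0.026), Gpx2 (0.049), Dio1 at position 739 (0.010), and Scly at position 331 (0.018). With median scaling, this was Scly (-0.022). With the replicate block, these were Scly (-0.033) and Lrp2 (0.074). On unscaled signals, where the median of all genes was -0.15, these were Gpx1 (-0.14), Gpx3 (-0.13), Msrb1 (-0.16), Sephs2 (-0.22), Scly (-0.27), and Selenop (-0.13). The median of the 10 genes went from 0.081 to -0.037 with quantile normalization and -0.036 with the authors' values. Leaving out 1 array gave -0.36 to 0.016 for Dio1, -0.050 to 0.072 for Scly, -0.089 to 0.056 for Selenot, -0.79 to 0.076 for Gpx2, -0.064 to 0.019 for Sars, -0.099 to 0.0996 for Lrp2, -0.019 to 0.27 for Glrx2, -0.25 to 0.18 for Dio1 at position 739, -0.17 to 0.17 for Dio1 at position 301, and -0.13 to 0.10 for Sephs2 at position 1163. Signal over background limits Dio2, Dio3, Gpx2, Gpx5, and the Txnrd2 probe at position 1180, and 3 arrays per genotype limit all of these values.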
